A study of Arabidopsis thaliana with 4 samples.

Results

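The genes described here encode the histones, the proteins that package DNA into chromatin. They were followed in callus of Arabidopsis thaliana grown from hypocotyl pieces, in 2 libraries of the wox5-1 wox7-1 double mutant and 2 libraries of the Col-0 wild type. Rows of the deposited count table were taken by locus identifier, which gave 39 of 32833 genes in 10 classes: the core histones H2A (4 genes), H2B (7), H3.1 (5) and H4 (8), the variants H2A.X (2), H2A.W (3), H2A.Z (3), H3.3 (3) and CENH3 (1), and the linker histone H1 (3). The members were chosen by histone class, but with the mutant and wild type values of these same libraries already in view, so their differences between the genotypes are given as a description and carry no test of their own.

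The mutant carries the wox5-1 and wox7-1 alleles. WOX5 and WOX7 encode related homeobox transcription factors. Both genotypes had the same treatment: seedlings spent 9 days in darkness, explants of about 1 cm were placed on callus induction medium with 11 µM of the auxin analogue 2,4-D and 0.2 µM of the cytokinin kinetin, and callus was taken at the stage labelled as 6 days, for which the culture text gives 5 to 6 days. For every library 2% sucrose and 22 °C are also given. About 100 calli went into an RNA extraction, so a library averages over many calli. No label states that the paired libraries of a genotype were cultured apart, and p-values therefore measure only the spread between these libraries, which may be technical.

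A nucleosome core holds a pair each of H2A, H2B, H3 and H4, and H1 binds the DNA between cores. H3.1 and the other replication-coupled histones are made mainly while DNA is copied, and the chaperone CAF-1 places H3.1 on new DNA. Replacement histones are made and placed throughout the cell cycle: HIRA places H3.3 at transcribed genes, and the SWR1 complex exchanges H2A for H2A.Z. H2A.X is phosphorylated at DNA breaks, H2A.W marks heterochromatin and CENH3 marks centromeres. Callus contains many dividing cells, which need new histones in each round of DNA replication.

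The genome sequence shows what separates the classes. The proteins in this paragraph were translated from the coding sequence of the RefSeq TAIR10.1 annotation. All 5 H3.1 genes encode 1 identical protein of 136 residues, and all 8 H4 genes encode 1 identical protein of 103 residues, although their coding sequences are only 80.3% to 89.5% identical in H3.1 and 78.8% to 98.1% identical in H4. The 3 H3.3 genes also encode the same protein as each other, which differs from H3.1 at 4 residues, A31T, F41Y, S87H and A90L. The H3.1 residue is given first and positions count from 1 at the residue after the start methionine. The coding strand around the first and the second pair of these positions is shown for the H3.1 gene and the H3.3 gene with the highest mean level per length, with the differing codons in capitals. Both genes lie on the minus strand.
AT5G65360 (H3.1), chr5:26120375-26120428: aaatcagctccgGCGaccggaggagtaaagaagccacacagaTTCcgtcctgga
AT4G40040 (H3.3), chr4:18558015-18558068: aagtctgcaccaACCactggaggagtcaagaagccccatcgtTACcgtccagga
AT5G65360 (H3.1), chr5:26120228-26120257: ttccagagcAGCgccgtcGCAgcacttcag
AT4G40040 (H3.3), chr4:18557668-18557697: ttccagagcCATgctgtgCTTgcactccag

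The H2A types differ at their C-terminal ends. Both H2A.X proteins end in the motif that is phosphorylated at DNA breaks, a serine and a glutamine followed by an acidic and a hydrophobic residue. All 3 H2A.W proteins hold 1 SPKK motif, which starts at the residue numbered 5 when the last is numbered 1. No H2A or H2A.Z protein holds either motif. The last codons of the gene with the highest level per length of each type are shown, with the codons of these motifs in capitals.
HTA10 (AT1G51060, H2A, plus strand), chr1:18927384-18927443: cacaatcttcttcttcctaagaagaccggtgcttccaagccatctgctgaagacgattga
H2AXA (AT1G08880, H2A.X, minus strand), chr1:2847144-2847203: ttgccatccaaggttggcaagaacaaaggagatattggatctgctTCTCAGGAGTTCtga
HTA6 (AT5G59870, H2A.W, minus strand), chr5:24115605-24115664: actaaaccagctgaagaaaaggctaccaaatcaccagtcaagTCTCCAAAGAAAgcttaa
HTA9 (AT1G52740, H2A.Z, plus strand), chr1:19646162-19646221: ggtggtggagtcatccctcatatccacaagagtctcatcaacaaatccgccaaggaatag

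The libraries held 30041268 to 40008661 gene-assigned reads, and the 39 histone genes took 0.420% and 0.442% of them in the mutant, against 0.530% and 0.589% in Col-0. WOX5 had 9 and 33 reads in the mutant libraries, against 4378 and 5268 in the Col-0 libraries. WOX7 had 22.4 and 22.2 CPM in the mutant, against 14.8 and 13.1 CPM in Col-0 (CPM, read counts scaled to library size with TMM factors). Reads summed along WOX7 say nothing of the wox7-1 allele itself. Over all genes, 2223 of 18716 passed the threshold, an adjusted p below 0.05 in edgeR's quasi-likelihood test, which is 11.9%. Every one of the 8 callus markers examined, among them LBD16, LBD18, PLT1 and SCR, had reads in each library, and they summed to 808 and 734 CPM in the mutant and 903 and 821 CPM in Col-0, with 2 that fell and 3 that rose.

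All 39 histone genes passed the filter on low counts, and 37 of them had a negative log2 fold change of the mutant over Col-0. Their median was -0.48, beside -0.0011 for all tested genes. Both mutant libraries lay below both Col-0 libraries for 33 of the 39, where 33.0% of all tested genes did so. Both lay above for 0 of the 39 and for 31.5% of all tested genes. Genotypes that did not overlap were thus common among all genes. Past the threshold over all genes, 12 histone genes fell and 27 stayed outside it. None rose by edgeR or by DESeq2, and all 25 with an unadjusted p below 0.05 in edgeR were lower. Among all 18716 tested genes, 6247 had an unadjusted p below 0.05 in edgeR, in either direction. Of all tested genes 5.81% fell and 6.06% rose. The members were proposed from this contrast, so nothing is read from their count against that background. In bulk RNA, fewer cells of a type and less RNA per cell cannot be told apart.

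The count of called genes rests on each library. Without Col-0 replicate 1 or Col-0 replicate 2, edgeR called 0 histone genes and 0 genes in all, with 24 and 16 histone genes lower at an unadjusted p below 0.05 and 3428 and 3346 genes in all below it. Without mutant replicate 1 or mutant replicate 2, 5 and 6 histone genes were lower past the threshold. HTA2, HTA7, HTA8, HTA11 and HTB2 passed in both of these fits, and the H4 gene AT5G59690 passed only without mutant replicate 2. The other 7 called genes, HTB1, HTB4, AT2G28720, AT1G09200, AT5G10400, AT5G10390 and HTR12, lost their calls in both. DESeq2 called 22 of the 39 as lower with all libraries. The number of histone genes with a negative fold change stayed between 35 and 38 in these fits.

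**Figure D1:**
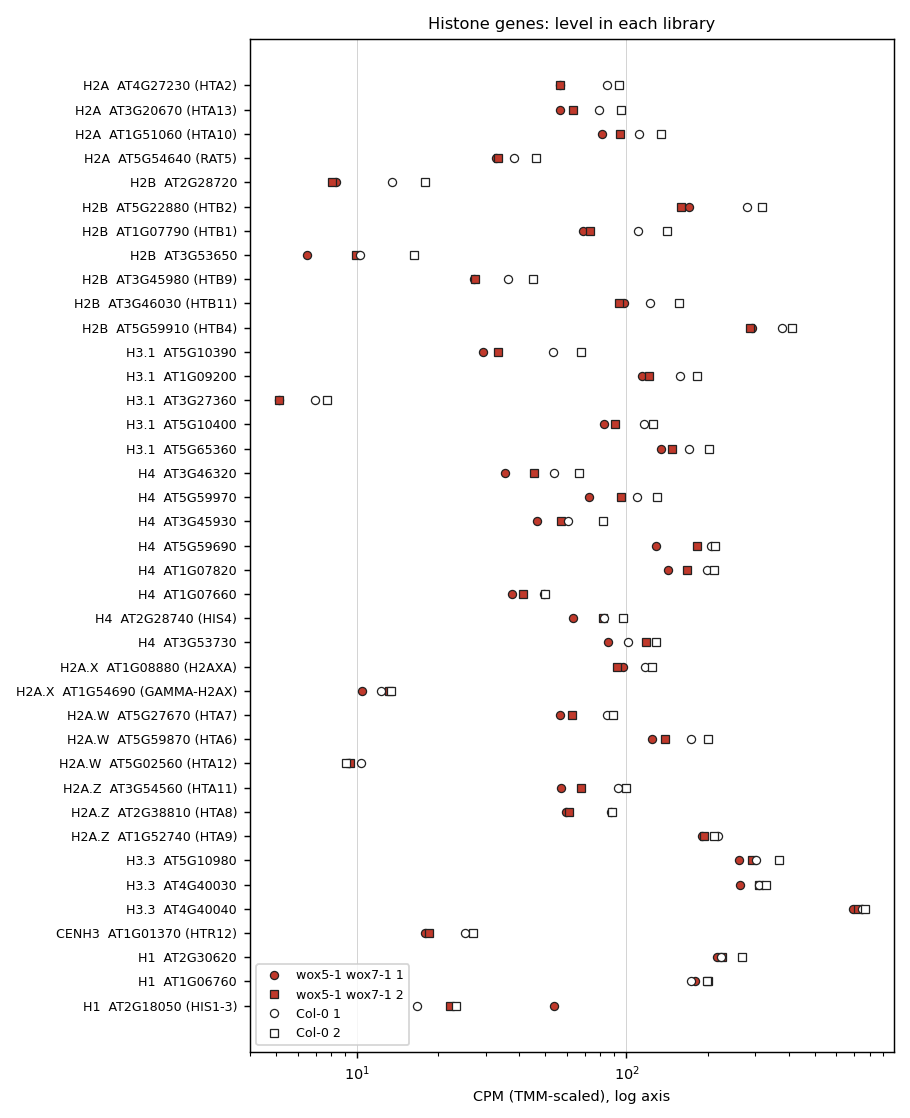
Level of each of the 39 histone genes in the 4 libraries, in CPM on a log axis; filled symbols are the wox5-1 wox7-1 libraries and open symbols the Col-0 libraries. The filled symbols lie left of both open symbols for 33 genes, and the 3 H1 genes are among the 6 that overlap.

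**Figure D2:**
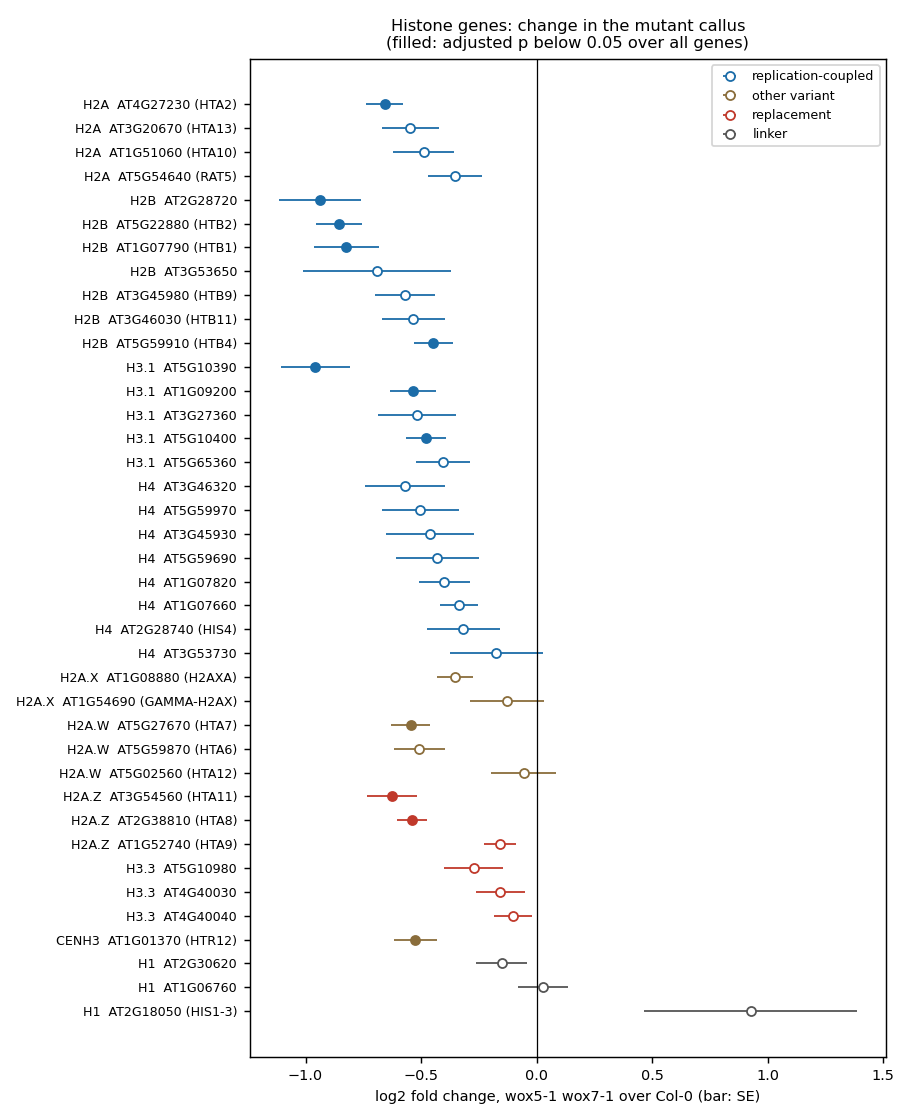
Log2 fold change of the mutant over Col-0 for each histone gene, with its SE as a bar, grouped by class and coloured by kind; filled points are the 12 genes past the threshold over all genes. The 24 replication-coupled genes all lie below 0, from -0.96 to -0.17, and the 3 H3.3 genes lie between -0.27 and -0.10.

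Histone genes can share sequence with a close copy or with a gene that overlaps them, so reads can be split in ways the deposited counts do not show. Of the 39 members, 15 share at least one run of 50 bases of their transcripts with another annotated gene, on either strand, and for 10 this covers over 10% of such runs. Among these 10, the sharing of GAMMA-H2AX, HTA12 and AT1G06760 is only with genes that overlap their exons, not with copies elsewhere. That of HTB9, HTA13 and AT3G27360 is partly with such overlapping genes. For example, AT3G45930 and AT3G46320, 2 H4 genes, share 25.7% and 27.9% of their runs, and HTA13 shares 11.1% of its runs, with HTA10 and with the overlapping gene AT3G20680. Whether counting used strand is not stated in the labels or the file, and 8 members have exons that overlap another gene, so their single values are uncertain. Over the 24 members with no shared run the median log2 fold change was -0.48 with 11 called, and over the other 15 it was also -0.48 but with 1 called. None of the 10 members with over 10% of runs shared was called by edgeR. The 8 members whose exons overlap another gene had a median of -0.15, and none of them was called. A sum over a class does not depend on how counted reads were divided within it, so class sums are given beside the genes. If shared reads were left out of the counts, which is not stated, a sum lacks them too. A sum does not remove sharing with genes outside the class, as for GAMMA-H2AX, or for AT1G06760, which shares 39.2% of its runs with AT1G04503.

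Among the classes, the H2B genes had the lowest ratio of the mutant to Col-0. Their summed level was 673 and 660 CPM in the mutant libraries, against 950 and 1108 CPM in the Col-0 libraries, a ratio of 0.648. Every H2B gene had both mutant libraries below both Col-0 libraries, as did 33.0% of all tested genes, and 4 of the 7 fell past the threshold. Col-0 replicate 2 stood at 1.17 times Col-0 replicate 1, so the genotypes differed by more than the Col-0 libraries did.

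HTB2 (AT5G22880), which had the highest H2B level per length in Col-0, had 171 and 160 CPM in the mutant, against 281 and 318 CPM in Col-0. It fell by 0.86 on the log2 scale (SE 0.10). HTB4 (AT5G59910), the H2B gene with the most reads, had 292 and 288 CPM in the mutant and 377 and 413 CPM in Col-0. It fell by 0.45 (SE 0.08), the smallest change of the class. The order of these 2 genes turned over, since per length HTB4 averaged 226 ± 2.62 RPKM and HTB2 195 ± 9.87 RPKM in the mutant (RPKM, the CPM per kilobase of annotated exon, SD, n = 2), while HTB4 averaged 307 ± 19.9 and HTB2 354 ± 31.5 RPKM in Col-0 (SD, n = 2). HTB4 accordingly took 43.4% and 43.6% of all H2B reads in the mutant, against 39.7% and 37.3% in Col-0.

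The 2 H2B genes with the fewest reads stood beside these. AT2G28720 had 8.32 and 8.05 CPM in the mutant, against 13.5 and 17.9 CPM in Col-0, and it fell by 0.94 (SE 0.18), the largest change of the class. AT3G53650 had 6.51 and 9.88 CPM in the mutant and 10.2 and 16.2 CPM in Col-0, without passing the threshold. HTB1 (AT1G07790) also fell, by 0.82 (SE 0.14), while HTB9 and HTB11 had log2 fold changes of -0.57 and -0.53 and did not pass.

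The canonical H2A genes summed to 227 and 247 CPM in the mutant, against 314 and 370 CPM in Col-0, a ratio of 0.694. All 4 had both mutant libraries below both Col-0 libraries, as did 33.0% of all tested genes. HTA2 (AT4G27230) had 56.5 and 56.6 CPM in the mutant, against 84.7 and 93.6 CPM in Col-0, and it was the 1 member of the class that fell past the threshold, by 0.66 (SE 0.08). HTA10, the highest per length, had 81.3 and 94.3 CPM in the mutant and 112 and 135 CPM in Col-0, a log2 fold change of -0.49 (SE 0.13). RAT5 (AT5G54640), known from a mutant resistant to Agrobacterium transformation, had 32.7 and 33.3 CPM in the mutant and 38.2 and 46.1 CPM in Col-0, a log2 fold change of -0.35 (SE 0.12). HTA10 and HTA13 did not differ beyond their spread in Col-0 per length.

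H3.1 transcripts summed to 366 and 397 CPM in the mutant, against 504 and 587 CPM in Col-0, a ratio of 0.699. All 5 genes had both mutant libraries below both Col-0 libraries, as did 33.0% of all tested genes, and 3 fell past the threshold. AT5G65360, with the highest mean, had 134 and 147 CPM in the mutant and 170 and 203 CPM in Col-0. Its log2 fold change of -0.41 (SE 0.12) did not pass. Per length, AT5G65360 and AT1G09200 did not differ beyond their spread in Col-0. AT5G10390 had 29.2 and 33.2 CPM in the mutant, against 53.3 and 68.0 CPM in Col-0. It fell by 0.96 (SE 0.15), the largest negative value of all 39 genes.

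AT5G10390 lies beside another H3.1 gene, AT5G10400, on the same strand, and the pair spans 2.11 kb of chromosome 5. AT5G10400 fell by 0.48 (SE 0.09), and whether the neighbours differ from each other was not tested. The share of AT5G10390 among H3.1 reads was 7.98% and 8.37% in the mutant, against 10.6% and 11.6% in Col-0. The H3.1 gene with the fewest reads, AT3G27360, had 5.12 and 5.13 CPM in the mutant and 6.94 and 7.74 CPM in Col-0. It shares 35.6% of its 50-base runs with other genes, among them AT3G27380, which overlaps its exons.

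The mutant libraries stood far apart in H4. The 8 H4 genes summed to 612 and 790 CPM in the mutant, against 862 and 978 CPM in Col-0, a ratio of 0.762, and edgeR called none, with 4 at an unadjusted p below 0.05 and 3 called lower by DESeq2. All 8 were higher in replicate 2 than in replicate 1 of the mutant, and all 8 were also higher in replicate 2 than in replicate 1 of Col-0. Without mutant replicate 1 the log2 ratio of the H4 sum was -0.22, and without mutant replicate 2 it was -0.59.

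AT5G59690, the highest H4 gene per length, had 129 and 183 CPM in the mutant and 206 and 214 CPM in Col-0, a log2 fold change of -0.43 (SE 0.18). It was -0.20 without mutant replicate 1 and -0.70 without mutant replicate 2, when it passed the threshold. AT3G46320 had the most negative value of the class, with 35.3 and 45.5 CPM in the mutant and 53.6 and 66.5 CPM in Col-0 (-0.57, SE 0.17). The other 5 H4 genes, AT5G59970, AT3G45930, AT1G07820, AT1G07660 and HIS4 (AT2G28740), lay between -0.50 and -0.32. AT3G53730 had the value nearest to 0, with 85.3 and 118 CPM in the mutant and 101 and 128 CPM in Col-0 (-0.17, SE 0.20), and its genotypes overlapped. Its value was 0.038 without mutant replicate 1 and 0.0054 without Col-0 replicate 2.

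**Figure D3:**
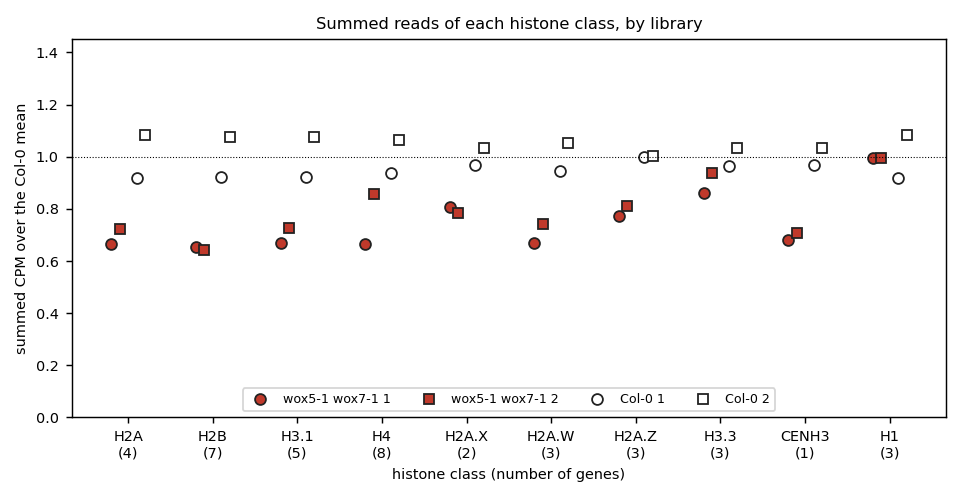
Summed CPM of each histone class in each library, divided by the Col-0 mean of that class; filled symbols are the wox5-1 wox7-1 libraries and open symbols the Col-0 libraries, with the number of genes in brackets. The mutant libraries lie below both Col-0 libraries in every class except H1, and the H4 symbols of the mutant lie far apart.

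The replacement variant H3.3 had the highest summed level per length in the mutant, while in Col-0 its libraries overlapped those of H4 and H2B. Among the core histones its ratio of the mutant to Col-0 was nearest to 1. Its 3 genes summed to 1221 and 1328 CPM in the mutant, against 1367 and 1467 CPM in Col-0, a ratio of 0.900. None passed the threshold in edgeR or in DESeq2, and 0 had an unadjusted p below 0.05 in edgeR. A p that misses the threshold does not show that these levels were equal.

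AT4G40040, the highest histone gene in the table, had 694 and 724 CPM in the mutant and 752 and 770 CPM in Col-0 (log2 fold change -0.10, SE 0.08). Its neighbour AT4G40030 had 264 and 310 CPM in the mutant and 312 and 329 CPM in Col-0 (-0.16, SE 0.11). AT5G10980 had 262 and 294 CPM in the mutant and 303 and 368 CPM in Col-0 (-0.27, SE 0.13). For all 3 the genotypes did not overlap, with mutant replicate 2 of AT4G40030 just under Col-0 replicate 1. Of all tested genes, 33.0% likewise had both mutant libraries below both Col-0 libraries, so little is read from this.

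The other replacement variant, H2A.Z, had members that moved by different amounts. HTA8 (AT2G38810) had 59.9 and 61.2 CPM in the mutant, against 87.3 and 88.5 CPM in Col-0, and fell by 0.54 (SE 0.07). HTA11 (AT3G54560) had 57.1 and 67.7 CPM in the mutant, against 93.4 and 99.3 CPM in Col-0, and fell by 0.63 (SE 0.11). HTA9 (AT1G52740), the highest of the class, had 191 and 195 CPM in the mutant and 218 and 212 CPM in Col-0 (-0.16, SE 0.07), without passing the threshold. HTA9 took 62.0% and 60.2% of the H2A.Z reads in the mutant, against 54.7% and 53.0% in Col-0. The H2A.Z sum, 308 and 324 CPM in the mutant and 399 and 400 CPM in Col-0, thus gave a ratio of 0.791. Without HTA9 its log2 ratio was -0.58, against -0.34 with it.

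The 3 H2A.W genes summed to 190 and 211 CPM in the mutant, against 269 and 299 CPM in Col-0, a ratio of 0.706. HTA7 (AT5G27670) had 56.5 and 62.6 CPM in the mutant, against 84.5 and 89.2 CPM in Col-0, and fell by 0.55 (SE 0.09). HTA6, with the most reads of the class, had 124 and 139 CPM in the mutant and 174 and 201 CPM in Col-0 (-0.51, SE 0.11), without passing the threshold. HTA12 (AT5G02560) had 9.34 and 9.36 CPM in the mutant and 10.4 and 9.10 CPM in Col-0 (-0.057, SE 0.14), with overlapping genotypes. Its exons overlap AT5G02570 on the opposite strand, which had no read in any library.

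The H2A.X genes summed to 108 and 105 CPM in the mutant and 129 and 138 CPM in Col-0, a ratio of 0.795, and edgeR called neither, with 1 at an unadjusted p below 0.05 and 1 called lower by DESeq2. H2AXA had 97.4 and 91.9 CPM in the mutant and 117 and 125 CPM in Col-0 (-0.35, SE 0.08). GAMMA-H2AX (AT1G54690) had 10.4 and 13.1 CPM in the mutant and 12.3 and 13.4 CPM in Col-0 (-0.13, SE 0.16), with overlapping genotypes. More of its sequence is shared with other genes than for any other member, 53.3% of its 50-base runs, and those genes overlap its exons.

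CENH3, encoded by HTR12 (AT1G01370), had 17.8 and 18.4 CPM in the mutant, against 25.2 and 26.9 CPM in Col-0. It fell by 0.53 on the log2 scale (SE 0.09). Its ratio to summed H3.1, per length, was 0.0205 and 0.0195 in the mutant and 0.0210 and 0.0193 in Col-0, so the genotypes overlapped in that ratio.

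The linker histones had overlapping genotypes for all 3 genes and 0 calls by edgeR or DESeq2, nor any unadjusted p below 0.05 in edgeR. H3.3 likewise had 0 calls and 0 such p. The H1 sum was 450 and 450 CPM in the mutant and 416 and 490 CPM in Col-0. AT1G06760 had 179 and 202 CPM in the mutant and 174 and 200 CPM in Col-0 (log2 fold change 0.027, SE 0.11). AT2G30620 had 217 and 227 CPM in the mutant and 225 and 268 CPM in Col-0 (-0.15, SE 0.11). The H3.3 gene AT4G40030 had a similar value, -0.16. The exons of both AT1G06760 and AT2G30620 overlap other genes, so their single values are uncertain. HIS1-3 (AT2G18050), a divergent H1 known to be induced by water deficit, had 54.0 and 22.2 CPM in the mutant and 16.7 and 23.3 CPM in Col-0. Mutant replicate 1 held the high value. The log2 fold change of HIS1-3 was 0.93 (SE 0.46) with all libraries, 0.14 without mutant replicate 1 and 1.44 without mutant replicate 2, when it passed the threshold.

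The balance between classes was compared per library, since a ratio within a library does not depend on the scaling between libraries. Replacement transcripts (H2A.Z and H3.3) over replication-coupled transcripts (H2A, H2B, H3.1 and H4) gave a ratio of summed RPKM of 0.601 and 0.580 in the mutant, against 0.498 and 0.457 in Col-0. H3.3 over H3.1 gave 2.01 and 2.02 in the mutant, against 1.64 and 1.54 in Col-0. In both ratios the mutant libraries lay above the Col-0 libraries by more than the spread within a genotype. Most of the replacement sum was H3.3, on average 1027 of 1383 RPKM in the mutant and 1156 of 1602 RPKM in Col-0. In summed CPM, the mutant stood at 0.791 of Col-0 for H2A.Z, 0.900 for H3.3 and 0.700 for the replication-coupled genes. With 2 libraries against 2, an exact two-sided permutation test cannot give a p below 0.333, so no test is given.

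Other ratios separated the genotypes less clearly. H2A.Z over H2A was 1.198 and 1.15 in the mutant and 1.11 and 0.937 in Col-0. H2A.W over H2A was 0.775 and 0.792 in the mutant and 0.793 and 0.753 in Col-0, so the genotypes overlapped. H1 over H4 was 0.463 and 0.350 in the mutant and 0.289 and 0.301 in Col-0, and H2B over H4 was 0.942 and 0.714 in the mutant and 0.947 and 0.985 in Col-0. In both of these ratios, the mutant libraries were farther from each other than the nearer one was from Col-0.

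**Figure D4:**
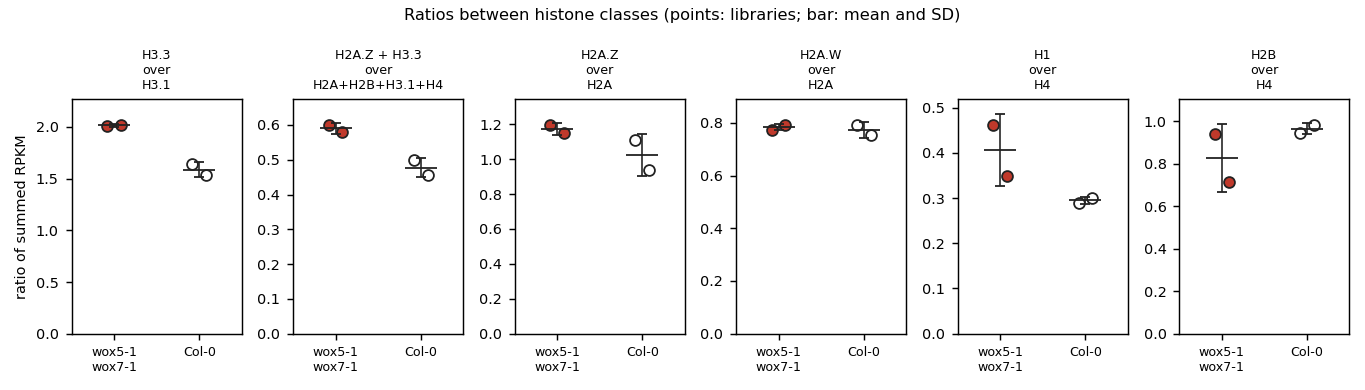
Ratios of summed RPKM between histone classes in each library (points), with the mean and SD of each genotype (bars), wox5-1 wox7-1 filled and Col-0 open; every axis starts at 0. H3.3 over H3.1 was 2.01 and 2.02 in the mutant, above 1.64 and 1.54 in Col-0, and H2A.W over H2A overlapped.

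As levels in RPKM summed over a class, the order in the mutant was H3.3 (1027 ± 65.5), H4 (845 ± 152), H2B (687 ± 10.4), H3.1 (509 ± 29.6), H2A.Z (356 ± 11.3), H1 (337 ± 5.66), H2A (304 ± 18.6), H2A.W (238 ± 18.3), H2A.X (100.5 ± 1.15) and CENH3 (10.2 ± 0.255) (SD, n = 2). In Col-0 the sums were 1156 ± 73.4 for H3.3, 1116 ± 99.1 for H4, 1080 ± 125 for H2B, 730 ± 79.2 for H3.1, 446 ± 0.270 for H2A.Z, 439 ± 51.4 for H2A, 339 ± 27.1 for H2A.W, 330 ± 38.3 for H1, 126 ± 6.00 for H2A.X and 14.7 ± 0.682 for CENH3 (SD, n = 2). H3.3, H4 and H2B did not differ beyond their spread in Col-0, nor did H2A.Z and H2A, or H2A.W and H1. In the mutant, H1 stood above H2A. The 4 H2A types together reached 999 RPKM in the mutant and 1349 RPKM in Col-0.

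All 7 H2B and all 5 H3.1 genes have 1 exon, as do 5 of the 8 H4 genes, while every H3.3 gene has 3 to 5 exons and HTR12 has 9. The median log2 fold change was -0.53 over the 17 members with 1 exon, all of them negative, and -0.35 over the 22 with more. H4 is the class that holds both structures, and its 3 genes with 2 exons had values of -0.34, -0.40 and -0.50, within the range of its 5 genes with 1 exon, -0.57 to -0.17. In the other classes all members have 1 exon or all have more. In 8 places, members lie within 150 kb of the next member, and 21 of the 39 sit in such groups. The largest groups hold 4 members each, on chromosome 3 from 16883316 to 17020428 (2 H4 and 2 H2B genes) and on chromosome 5 from 24051474 to 24146729 (2 H4 genes, HTA6 and HTB4).

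Plant histone promoters are known for an octamer motif, CGCGGATC, and for a hexamer, ACGTCA. Both were searched on both strands in the 250 bases before the annotated start of each gene, and no octamer match overlapped a hexamer match. The octamer was found before 10 of the 39 members (25.6%) and before 37 of all 27443 protein-coding genes (0.135%). It was present before 3 of 5 H3.1 genes, 2 of 4 H2A genes, 2 of 8 H4 genes, HTA6, the H3.3 gene AT4G40040 and the H1 gene AT1G06760. All 12 matches lay within 126 bases of the start. The hexamer was found before 9 members (23.1%), among them 6 of the 7 H2B genes, where it lay on the strand of the gene, and before 7.69% of all protein-coding genes. The 250 bases before 4 genes, read 5′ to 3′ on the strand of the gene, are shown with the matches in capitals: the H2A and H3.1 genes with 2 octamers, HTB2 for H2B, and the H3.3 gene with an octamer. Letters alone do not show that a factor binds there.
HTA10 (H2A, plus strand), chr1:18926561-18926810: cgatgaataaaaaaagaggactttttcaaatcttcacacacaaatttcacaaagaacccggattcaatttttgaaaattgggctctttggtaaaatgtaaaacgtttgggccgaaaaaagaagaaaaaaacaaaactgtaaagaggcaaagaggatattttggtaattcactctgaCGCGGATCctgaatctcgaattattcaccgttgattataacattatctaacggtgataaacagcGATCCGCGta
AT1G09200 (H3.1, minus strand), chr1:2972335-2972584: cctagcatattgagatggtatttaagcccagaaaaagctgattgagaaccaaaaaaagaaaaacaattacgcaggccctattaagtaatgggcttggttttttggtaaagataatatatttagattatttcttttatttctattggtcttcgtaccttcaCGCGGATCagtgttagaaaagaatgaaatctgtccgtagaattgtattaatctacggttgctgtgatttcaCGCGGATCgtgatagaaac
HTB2 (H2B, minus strand), chr5:7652715-7652964: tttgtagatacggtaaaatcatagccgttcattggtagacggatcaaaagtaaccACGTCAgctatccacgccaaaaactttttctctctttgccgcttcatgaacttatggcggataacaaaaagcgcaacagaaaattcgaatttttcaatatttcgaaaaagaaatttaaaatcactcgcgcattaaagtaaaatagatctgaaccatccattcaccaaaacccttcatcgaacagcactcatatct
AT4G40040 (H3.3, minus strand), chr4:18558946-18559195: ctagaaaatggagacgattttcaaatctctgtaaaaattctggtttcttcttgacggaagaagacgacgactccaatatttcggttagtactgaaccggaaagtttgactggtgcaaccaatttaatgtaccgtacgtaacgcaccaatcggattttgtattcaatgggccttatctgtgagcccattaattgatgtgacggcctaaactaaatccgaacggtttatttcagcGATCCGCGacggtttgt

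The 10 genes with an octamer had a median log2 fold change of -0.45 (2 of them fell past the threshold) and the 29 without one had -0.50 (10 fell). AT1G09200, with 2 octamers, had 114 and 121 CPM in the mutant, against 158 and 183 CPM in Col-0, and fell by 0.53 (SE 0.10). The octamer genes AT4G40040 and AT1G06760 had values of -0.10 and 0.027. The 9 genes with a hexamer had a median of -0.57 and the 30 without one had -0.42, but 6 of those 9 are H2B genes.

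**Figure D5:**
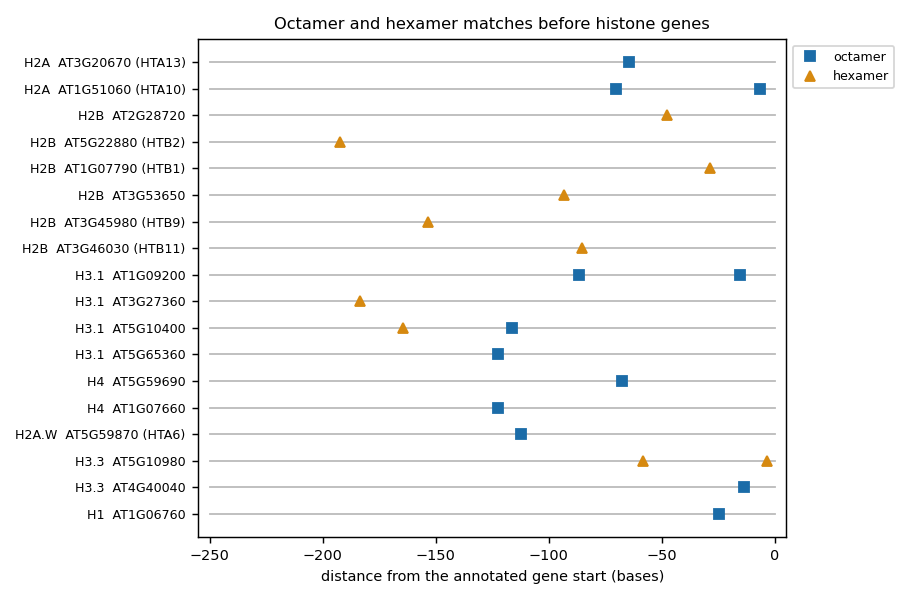
Positions of octamer (squares) and hexamer (triangles) matches in the 250 bases before the annotated start of the 18 histone genes that hold at least 1, with distance from the start in bases. The hexamers of the H2B genes are spread over the window, and all octamers lie within 126 bases of the start.

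Of 10 histone loci outside the 39 that were examined, 3 had no read in any library and 2 more were too low to test. The other 5 all had negative log2 fold changes, and edgeR called none, with 2 at an unadjusted p below 0.05 and a median of -0.65. AT2G37470, listed as an H2B locus and with the most reads of them, had 22.8 and 26.0 CPM in the mutant and 32.3 and 41.6 CPM in Col-0 (-0.60, SE 0.16, edgeR adjusted p = 0.0799).

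Genes whose products carry, exchange or read histones were examined as a list of 30, all of which were tested. Of these, 6 fell and 24 were not called. In edgeR 13 of the 30 had an unadjusted p below 0.05, 12 of them lower and ATRX higher. Among all 18716 tested genes, 6247 had such a p. The median log2 fold change of the list was -0.21, beside -0.0011 for all tested genes. The call with the smallest p was DDM1 (AT5G66750), a chromatin remodeller known to place H2A.W, which had 94.8 and 84.5 CPM in the mutant, against 141 and 139 CPM in Col-0 (-0.64, SE 0.08, edgeR adjusted p = 0.0256). TSK (AT3G18730), whose product binds H3.1 on new chromatin, had 28.2 and 26.3 CPM in the mutant, against 40.9 and 41.9 CPM in Col-0 (-0.60, SE 0.09, edgeR adjusted p = 0.0283). CENP-C (AT1G15660), a partner of CENH3 at the kinetochore, had 81.3 and 78.1 CPM in the mutant, against 109 and 122 CPM in Col-0 (-0.54, SE 0.08, edgeR adjusted p = 0.0337). NRP1 (AT1G74560), a chaperone of H2A and H2B, had 214 and 197 CPM in the mutant, against 285 and 280 CPM in Col-0 (-0.46, SE 0.08, edgeR adjusted p = 0.0393).

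The remaining calls of that list, named after their values were seen, were FAS1 (AT1G65470), the large subunit of CAF-1, and KNL2 (AT5G02520), which is needed to place CENH3. They fell by 0.47 (SE 0.08) and 0.51 (SE 0.10). HIRA (AT3G44530), the H3.3 chaperone, was also singled out after its value was seen and had 50.7 and 49.7 CPM in the mutant and 63.3 and 60.5 CPM in Col-0 (-0.30, SE 0.07, edgeR adjusted p = 0.0632). ATRX (AT1G08600), whose product also takes part in placing H3.3, was named after its value was seen as well and had 106 and 97.8 CPM in the mutant and 86.5 and 77.9 CPM in Col-0 (0.31, SE 0.09, edgeR adjusted p = 0.0939). The SWR1 subunit genes PIE1, ARP6, SWC6 and SWC2 had log2 fold changes of -0.08, -0.21, 0.0045 and -0.33, none past the threshold.

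Genes of DNA synthesis and of mitosis were examined as 2 further lists, and the part of cell division in the histone values was not tested. The 8 genes of DNA synthesis summed to 854 and 772 CPM in the mutant, against 1091 and 1127 CPM in Col-0. Of them 3 fell and 5 were not called, with a median log2 fold change of -0.47. In edgeR 7 of the 8 had an unadjusted p below 0.05. Of all tested genes 5.81% fell, and their median was -0.0011. PCNA2 (AT2G29570), which encodes a sliding clamp of DNA polymerase, had 66.6 and 64.9 CPM in the mutant, against 111 and 103 CPM in Col-0 (-0.70, SE 0.08, edgeR adjusted p = 0.0206). PCNA1, the gene of the other clamp, fell by 0.54 (SE 0.08). RNR1, which encodes a subunit of ribonucleotide reductase, fell by 0.45 (SE 0.08).

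The 9 mitotic genes summed to 488 and 490 CPM in the mutant, against 702 and 771 CPM in Col-0. Of them 7 fell and 2 were not called, with a median of -0.58, where 5.81% of all tested genes fell. In edgeR all 9 had an unadjusted p below 0.05. KN (AT1G08560), a syntaxin of cell plate formation, had 62.6 and 68.7 CPM in the mutant, against 107 and 114 CPM in Col-0 (-0.75, SE 0.08, edgeR adjusted p = 0.0216). CDC20.1 (AT4G33270), an activator of the anaphase-promoting complex, had 93.1 and 92.98 CPM in the mutant, against 133 and 145 CPM in Col-0 (-0.58, SE 0.08, edgeR adjusted p = 0.0250). CDKB2;1 and CYCB1;2 fell by 0.62 (SE 0.09) and 0.58 (SE 0.09). The replication-coupled histone genes, beside these lists, had a median of -0.51, the 6 replacement genes -0.21 and the 3 H1 genes 0.027. The replacement value pools unlike classes, with a median of -0.54 for the 3 H2A.Z genes and -0.16 for the 3 H3.3 genes.

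Some markers of differentiated cell types rose in the mutant, and their part in the histone values was not tested. The 5 endodermal markers summed to 143 and 147 CPM in the mutant, against 5.26 and 3.93 CPM in Col-0, and 2 of the 3 tested rose. MYB92 alone had 121 and 124 CPM in the mutant, against 1.22 and 1.19 CPM in Col-0, while CASP1 had no read in any library and CASP2 at most 0.460 CPM. The 3 root cap markers summed to 86.4 and 101 CPM in the mutant, against 7.99 and 10.7 CPM in Col-0, and 1 of the 2 tested rose. That gene, SMB, had 85.8 and 89.4 CPM in the mutant, against 7.76 and 4.73 CPM in Col-0. BRN1 had 0.509 and 11.6 CPM in the mutant and 0.230 and 5.95 CPM in Col-0, with overlapping genotypes, and BRN2 at most 0.205 CPM. The 7 xylem vessel markers summed to 26.2 and 17.6 CPM in the mutant, against 12.2 and 10.7 CPM in Col-0, and 2 of the 6 tested rose. The 5 mesophyll markers summed to 3.76 and 1.13 CPM in the mutant and 1.25 and 0.636 CPM in Col-0, so the genotypes overlapped, and edgeR called neither of the 2 tested, with 1 at an unadjusted p below 0.05.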

How the data were processed

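RNA-seq of 4 libraries (2 mutant, 2 Col-0) was deposited as 1 table of whole-number counts by gene. STAR 2.7.2b, Trim Galore 0.5.0, DESeq2 and the TAIR10 build appear in the submitters' processing notes, without their roles; the counter and its strand setting were not stated. Every deposited value was at least 10, and 33.1% to 35.3% of genes per library held exactly 10, so 10 was subtracted as an added constant. This is an inference from the values.

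Counts were tested in R 4.3.3 with edgeR 4.0.16 (filterByExpr, TMM, glmQLFit and glmQLFTest, no covariates, two-sided, Benjamini-Hochberg over 18716 genes, threshold 0.05), and with DESeq2 1.42.0 as an alternative. The edgeR script was tested on simulated data with larger changes and less spread than here, which cannot show how well changes of the present size are called. The SE is the absolute log2 fold change over the square root of F. Levels per length used the union of exons in the RefSeq TAIR10.1 annotation, from which sequences and coordinates also came. All 39 identifiers matched it. With 2 libraries a genotype, precision is limited by their spread rather than by depth.

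The members and gene lists were chosen with earlier results of these data known. Values in every library are given for the H3.3, CENH3, H2A.Z and H1 members, and in other classes for the highest, the most and the least changed gene. From the lists, up to 4 called genes with the smallest p are named, or 1 where none passed. Other settings tried were the values as deposited, RLE and upper-quartile scaling, no filter or a stricter one, the replicate number as a block, and each library left out. For the values as deposited, edgeR's default dispersion trend could not be fitted, and a moving average was used.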

Additional observations from a re-analysis of the deposited data

How the results depend on the processing

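Histone genes past the threshold as lower numbered 12, and 12 to 16 with the values as deposited, RLE or upper-quartile scaling, no filter or the stricter filter. They numbered 22 with DESeq2 and 26 with the replicate number as a block. The H4 gene AT3G46320 was among those gained under the block, at -0.57. Leaving out 1 library gave 0 to 6. The count over all genes was 2223, against 3921 with the values as deposited, 3936 with DESeq2, 4750 with the block and 0 to 2493 with 1 library left out. HIS1-3 was the 1 histone gene that passed as higher with the values as deposited, and 0 to 1 did with 1 library left out. Same-numbered libraries deviated together across genes (correlation 0.555), but the labels do not say what the number marks, and it was not taken as a pairing. Class sums of H2A.X, H2A.Z and CENH3 had log2 ratios of -0.25, -0.26 and -0.44 with the values as deposited, against -0.33, -0.34 and -0.53. Without the member with the most reads, H2A.X stood at -0.13, H2A.Z at -0.58 and the 4 H2A types together at -0.54, against -0.43 with it. CENH3 is 1 gene and has no such value. The log2 ratio of replacement over replication-coupled sums lay between 0.26 and 0.39 with 1 library left out. With 1 library left out, the sign turned for AT1G06760 (-0.061 without Col-0 replicate 1, -0.056 without mutant replicate 2, up to 0.12), GAMMA-H2AX (AT1G54690, -0.30 to 0.024), AT3G53730 (-0.42 to 0.038, with 0.0054 without Col-0 replicate 2) and HTA12 (AT5G02560, -0.15 to 0.046), and for HTA12 with the values as deposited (0.025). None of these 4 had passed the threshold. Among the 11 called genes that the naming rule took from the lists, NRP1 and RNR1 lost their calls with the values as deposited, as did HTB4, and NRP1, RNR1, CENP-C, CDKB2;1 and CDC20.1 without mutant replicate 2. The cause was not tested in any of these cases. Where a library is left out, its genotype keeps 1 library, assumed to vary like the other genotype.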
